A study of Mus musculus with 5 samples.

Results

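The regions described here are the tallest summits of RNA polymerase II (Pol II) over the genome of Th2 cells. In each ChIP-Seq library every enriched interval carries 1 summit, the point where the most sequenced fragments overlap, and the number of overlapping fragments there is its height. Of 42775 summits in 4 libraries, 737 (1.72%) had a height of 40 or more. Summits of that height lying 1 kb or less apart in different libraries were merged, which gave 340 tall regions. Merging all summits in the same way gave 28148 regions. The regions were thus chosen by summit height alone, so heights and their ratios are given below as descriptions with no test, while the place of a summit against genes and the sequence under it were not used to choose it.

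Naive CD4+ T cells from spleens of C57BL6 mice, either *Parp14*+/+ or *Parp14*-/-, were activated through CD3 and CD28, cultured for 3 days with IL-4 and antibody to IFN-γ to obtain Th2 cells, and expanded for 4 days with IL-2 and IL-4. *Parp14*-/- mice lack PARP-14, an ADP-ribosyltransferase that works with STAT6, the factor activated by IL-4. Cells of each genotype were cultured without or with PJ34, an inhibitor of ADP-ribosyltransferases, at 10 µM in the sample labels and at a lower dose in the study's methods. There is 1 library per condition, all cells received IL-4 and the Th2 culture, and the treated libraries are written *Parp14*+/+ + PJ34 and *Parp14*-/- + PJ34. Where 4 heights are given without further words, the *Parp14*+/+ pair comes before the *Parp14*-/- pair and the untreated library first in each. A distance given for a region is that of the summit in its tallest library. The antibody recognised Pol II phosphorylated at serine 2 of its tail, and the mutation is carried in every cell of the *Parp14*-/- mice, not in T cells alone.

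Serine 2 phosphorylation marks the elongating form of Pol II. It builds up along a gene and is known to be densest around and beyond the site where the transcript is cleaved and polyadenylated, where the polymerase slows before it leaves the DNA. A high point at a gene start, in contrast, is usually associated with polymerase that has just initiated or is paused. In T cells the loci with the most polymerase include immediate early genes, genes of cytokine signalling and housekeeping genes.

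Sequence is shown for 3 summits past gene ends that recur below, 2 that were higher in *Parp14*-/- (*Irf1* and *Cd69*) and 1 of the tallest (*Il4ra*). Each is 300 bases of mm9 in the direction of the gene, overlaps no annotated exon, and has in capitals the 33 bases within 16 bases of the summit. The *Irf1* window is chr11:53592444-53592743 on the plus strand, the *Cd69* window chr6:129216716-129217015 on the minus strand and the *Il4ra* window chr7:132723596-132723895 on the plus strand.
Irf1: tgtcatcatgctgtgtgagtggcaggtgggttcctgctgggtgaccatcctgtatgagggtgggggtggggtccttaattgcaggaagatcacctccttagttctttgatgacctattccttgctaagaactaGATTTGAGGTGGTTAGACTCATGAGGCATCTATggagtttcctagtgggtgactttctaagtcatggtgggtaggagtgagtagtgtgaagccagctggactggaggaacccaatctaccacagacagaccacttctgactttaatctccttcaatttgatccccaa
Cd69: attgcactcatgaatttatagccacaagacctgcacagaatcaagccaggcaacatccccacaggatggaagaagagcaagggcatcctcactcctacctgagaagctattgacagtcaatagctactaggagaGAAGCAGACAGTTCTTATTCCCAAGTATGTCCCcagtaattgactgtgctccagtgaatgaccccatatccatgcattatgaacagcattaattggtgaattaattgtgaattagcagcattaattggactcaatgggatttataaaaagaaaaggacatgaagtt
Il4ra: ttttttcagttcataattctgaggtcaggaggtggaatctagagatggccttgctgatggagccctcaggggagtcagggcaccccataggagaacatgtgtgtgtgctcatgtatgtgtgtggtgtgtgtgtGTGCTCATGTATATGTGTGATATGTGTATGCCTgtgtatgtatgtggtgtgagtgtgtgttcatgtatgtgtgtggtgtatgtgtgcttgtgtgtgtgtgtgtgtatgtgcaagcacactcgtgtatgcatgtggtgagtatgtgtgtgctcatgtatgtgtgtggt

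None of these windows is rich in CpG. The *Il4ra* window holds 1 CG dinucleotide and the *Irf1* and *Cd69* windows 0, with G and C at 46.7%, 48.3% and 41.3% of their bases in that order. The *Il4ra* window consists in large part of alternating TG repeats.

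Among the tall regions next to microRNA genes are those of *Mir142*, *Mir21* and *Mir155*, so these mature microRNAs (RefSeq, GRCm38.p6) are shown with the seed, bases 2 to 8, in capitals.
mmu-miR-142a-5p: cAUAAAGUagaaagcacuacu
mmu-miR-142a-3p: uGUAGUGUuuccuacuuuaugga
mmu-miR-21a-5p: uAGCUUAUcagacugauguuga
mmu-miR-155-5p: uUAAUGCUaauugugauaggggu

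The 4 seeds differ from each other. Of these, miR-142 is known as a microRNA of blood cells, and miR-21 and miR-155 as microRNAs that are induced on lymphocyte activation.

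The libraries had been reduced to the same number of alignments by the authors, and the median height over all their summits was 9 in each. In *Parp14*-/- + PJ34 heights were lower over the genome, with a median ratio of 0.9 to *Parp14*+/+ over all merged regions, against 1 for the other 2 libraries. *Parp14* itself is not among the tall regions. The deposited table gives it an average height of 8 and 11 in the untreated and treated *Parp14*+/+ libraries, and 6.67 in both *Parp14*-/- libraries. Enriched intervals covered 22873 and 20836 bp of the gene in the *Parp14*+/+ libraries, against 2686 and 3286 bp in the *Parp14*-/- libraries. Of the defining markers, all 8 Th2 genes and all 10 T cell genes had an interval in at least 1 library. *Il5* had one only in the *Parp14*+/+ libraries and *Cd3g* only in untreated *Parp14*+/+. *Cd4* had none in *Parp14*-/- and *Lck* none in *Parp14*-/- + PJ34. All 4 listed Th1 genes had an interval in each library. Their average peak heights summed to 63.5 to 92 per library, against 138 to 253 for the Th2 genes. These sums cover 4 and 8 genes, so they do not compare the lists gene for gene. *Tbx21*, the master regulator of Th1 cells, had 28, 22, 26 and 19. No erythroid or natural killer marker was among the listed genes. In at least 1 library, 1 of 5 listed B cell markers (*Cd79a*) and 2 of 3 listed myeloid markers had an interval. Peak heights of *Cd79a* were 28 to 38, and its part in the results was not tested.

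The tall summits stood at the ends and starts of genes. Of the 340 regions, 152 (44.7%) had their highest summit in the 5 kb past the end of a gene, 56 (16.5%) within 500 bp of a gene start, and 48 (14.1%) at the start of a gene and past the end of another at the same time. A further 44 (12.9%) were inside a gene, 8 (2.35%) lay 0.5 to 5 kb upstream of a start, and 32 (9.41%) had none of the 11608 listed genes within 5 kb. Over all 28148 merged regions, 59.7% were inside a gene, 18.6% past an end and 6.31% at a start. Of the 1571 regions with a height of 20 to 39, 29.1% were past an end and 26.2% inside, between these values, and 19.2% were at a start. The share past an end thus increased from each height class to the next, whereas the share inside genes decreased. Of the 152 regions past an end, 18 were also inside another listed gene.

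**Figure D1:**
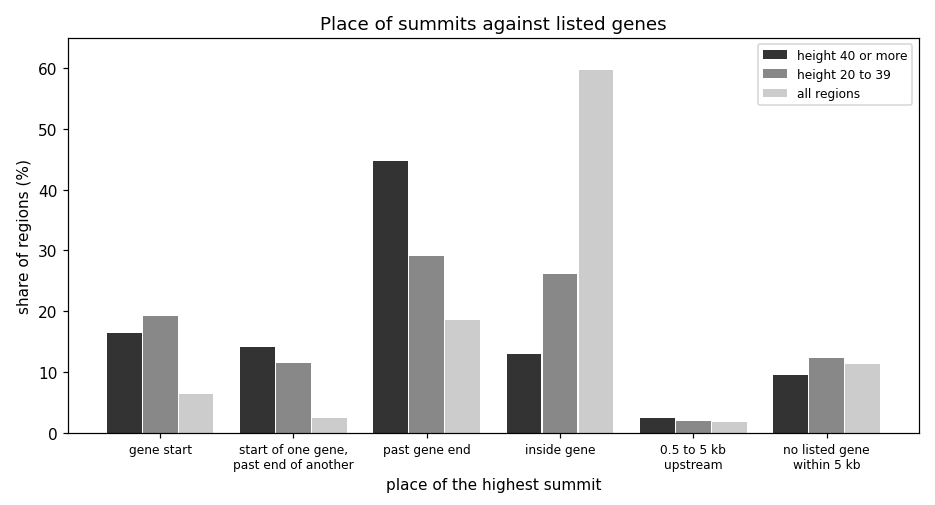
Share of regions (%, vertical axis) by place of the highest summit against listed genes (horizontal axis), for tall regions, regions with a height of 20 to 39 and all merged regions. Past the end of a gene lie 44.7% of the tall regions and 18.6% of all regions, and inside a gene 12.9% and 59.7%.

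Past gene ends, the median distance from the end of the gene to the summit was 1030 bp among tall regions, with quartiles of 596 and 2095 bp, and 72 of 152 summits lay within 1000 bp. Over all merged regions past an end the median was 1925 bp. At gene starts the median tall summit was 33 bp into the gene, and 40 of 56 lay within 100 bp of the start. Genes followed by a tall summit were short, with a median length of 7695 bp against 21686 bp for all merged regions past an end. The same held at starts, with a median gene length of 6051 bp for tall regions against 19249 bp for all merged regions.

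Start and end summits differed in how well the libraries placed them. Among the 185 tall regions with a summit in each library, the 4 summits of a region spanned a median of 64 bp at gene starts (23 regions) and 416 bp past gene ends (90 regions). At starts 14 of 23 regions had all 4 summits within 96 bp, and past ends 12 of 90. The deposited summits lie on a grid of mostly 32 bp or finer, so the summit at a start was placed almost to the grid while that past an end moved further.

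The sequence under the summits differed in the same way. Windows of 300 bases around tall summits at gene starts had a median G and C content of 63.5% and 25 CG dinucleotides, and 91.1% held 10 or more CG. Past gene ends the medians were 46.7% and 3, and 9.87% held 10 or more, against 5.3% of windows of all merged regions past ends. In G and C content the tall windows were close to those of all merged regions at the same places, which had 65% at starts and 47% past ends. The polyadenylation hexamer AATAAA, on either strand, was present in 28.9% of tall windows past ends and 7.14% of those at starts, against 26.2% of all merged regions past ends. It was not particular to ends. Over all merged regions it was present in 31% of windows inside genes and 26.5% of those with no listed gene within 5 kb. The palindromic motif known for STAT6, TTC and GAA around 4 unspecified bases and thus the same on both strands, was present in 30 of 340 tall windows (8.82%), against 7.72% over all merged regions.

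Of the 340 regions, 77 (22.6%) were tall in all 4 libraries, 51 in 3, 64 in 2 and 148 in a single library. Heights between 40 and 49 made up 156 regions, and 17 reached 100. At the threshold, 21 regions had a maximum of exactly 40 and 16 further regions one of 39. Examples just inside are *Igtp*, an immunity-related GTPase, with heights of 24, 34, 40 and 35, and *Zfp703* with 40, 17, 23 and 27. Just outside are *Ifrd1* with 20, 36, 39 and 32 and *Prkch*, a protein kinase C of T cells, with 31, 29, 39 and 28. A region can lack a summit in a library although polymerase is present there, because an interval carries its summit only at its highest point. In *Parp14*+/+, 85 regions had no summit within 1 kb, and 82 of these lay under an interval of that library.

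Chromosome 11 held 56 of the 340 regions (16.5%), against 8.24% of all merged regions.

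The tallest region over the 4 libraries was 1540 bp past the hairpin of *Mir142*, at chr11:87571969. The *Parp14*+/+ libraries reached 172 without and 182 with PJ34, the *Parp14*-/- libraries 184 and 173. The 4 values were close, and the ratio of *Parp14*+/+ to *Parp14*-/- was 0.935 with an interval of 0.755 to 1.16. Here and below the interval is the exact binomial 95% interval of the ratio of 2 heights, it covers counting error only, and it says nothing on differences between cultures.

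*Rgs1*, which encodes a regulator of G protein signalling in lymphocytes, had its summit 822 bp past its end, with 136 and 123 in *Parp14*+/+ without and with PJ34, and 192 and 147 in *Parp14*-/- likewise. The value of 192 is the highest of any summit, and both *Parp14*-/- libraries were above both *Parp14*+/+ libraries. *Ddx5*, an RNA helicase, ends 773 bp before the next summit, which also lies 141 bp upstream of the *Polg2* start. Its heights were 133, 147, 160 and 144 in the same order of libraries. *Il4ra*, the receptor chain for IL-4, had 132, 110, 160 and 130 at 757 bp past its end, so that each untreated library was above both treated libraries.

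A summit of 126, 148, 163 and 147 on chromosome 17 lies 302 bp into the listed gene LOC627695, near the annotated AY036118. This stretch of mm9 is known to match ribosomal RNA genes, which exist in many copies, so its height cannot be assigned to this locus alone. The summit between *Jak2*, the kinase downstream of several cytokine receptors, and *Insl6* is 4239 bp past the end of *Jak2* and 4035 bp past that of *Insl6*, which face each other. It had 107, 106, 140 and 132, again with both *Parp14*-/- libraries above both *Parp14*+/+ libraries.

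*Irf1*, a transcription factor induced by interferons, carried its summit 1768 bp past its end, shown above, with 86, 110, 144 and 119. *Egr1*, an immediate early zinc finger factor, had 57, 124, 115 and 141 at 319 bp past its end. The *Parp14*+/+ library alone was low, while the PJ34-treated library of the same genotype was as high as the *Parp14*-/- libraries. At *Vmp1*, 1398 bp past the end and 1600 bp past the hairpin of *Mir21*, heights were 78, 92, 121 and 108. *Junb*, an AP-1 subunit, had 65, 73, 125 and 90 at 158 bp past its end.

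*Actb*, encoding cytoplasmic actin, had 75, 116, 104 and 103 at 890 bp past its end, with *Parp14*+/+ alone lower. *Satb1*, a chromatin organiser of T cells, had 89, 75, 99 and 77, and *Id2*, an inhibitor of helix-loop-helix factors, 82, 98, 68 and 90. At *Satb1* both untreated libraries were above both treated libraries, and at *Id2* the order was the opposite. The long noncoding RNAs *Neat1* and *Malat1* are joined in a single listed gene, but the annotation places the summits 69 bp and 46 bp into *Neat1* and *Malat1*. The heights were 63, 97, 99 and 77 at the *Neat1* start and 75, 89, 90 and 81 at the *Malat1* start.

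**Figure D2:**
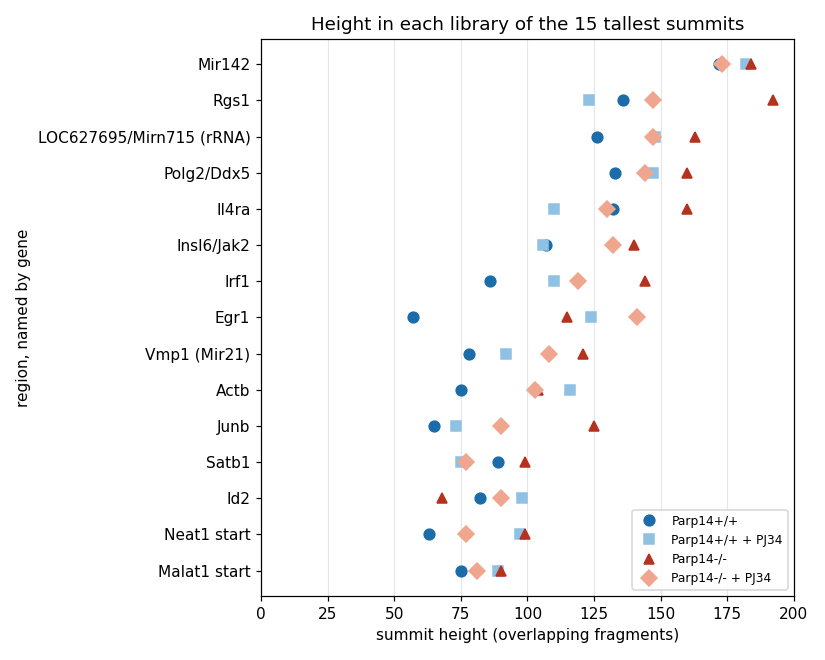
Summit height (overlapping fragments, horizontal axis) of the 15 regions with the highest mean over the libraries (vertical axis), with a marker for each of the 4 libraries. *Mir142* lies between 172 and 184 in all libraries, while *Egr1* has 57 in *Parp14*+/+ and at least 115 in the others.

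Some loci, named after their values were seen, were tall at places that differed between libraries. The *Il2ra* to *Il15ra* stretch, which encodes the high affinity chains for IL-2 and IL-15, lies under a single long interval in each library. In *Parp14*+/+ the summit of 112 was 2239 bp past the end of *Il2ra*. In the other 3 libraries it was at the start of *Il15ra*, with 138 at 294 bp into the gene in the treated *Parp14*+/+ library, 145 at 198 bp in *Parp14*-/- and 112 at 326 bp in *Parp14*-/- + PJ34. *Tnfsf8*, encoding CD30 ligand, had 131, 132 and 120 at the same place inside the gene in 3 libraries and 100 at a nearby place in *Parp14*-/-.

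The place of tall summits also differed between libraries as a whole. In *Parp14*+/+, 13 of 179 tall summits (7.26%) were at a gene start and 101 (56.4%) past an end. In *Parp14*+/+ + PJ34, 26 of 173 were at a start and 76 (43.9%) past an end. In *Parp14*-/- the counts were 25 (12.4%) and 91 (45.3%) of 201, and in *Parp14*-/- + PJ34 37 (20.1%) and 78 (42.4%) of 184. *Parp14*+/+ thus had the lowest share at starts and the highest share past ends. Past ends, the share over all summits of a library was 23.1%, 21.7%, 20.7% and 22.2% in the order above. At heights of 20 to 39 it was 43.6%, 34.2%, 27.9% and 29.3%, so *Parp14*+/+ was highest there too. Over all summits of a library the share at starts was 6.96%, 7.09%, 9.08% and 10.9% in the same order, so the *Parp14*-/- libraries had the higher shares there too, while the *Parp14*+/+ libraries without and with PJ34 were nearly equal.

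**Figure D3:**
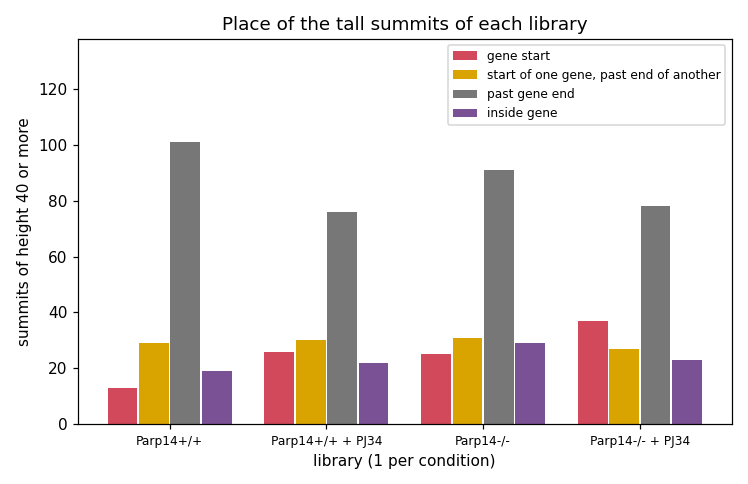
Number of summits with a height of 40 or more (vertical axis) in each library (horizontal axis, 1 library per condition) by their place. At gene starts there are 13 and 26 in *Parp14*+/+ without and with PJ34, and 25 and 37 in *Parp14*-/- likewise, and past gene ends 101, 76, 91 and 78.

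The place could also be followed within genes. Among 254 listed genes of at least 1000 bp with a tall summit, 33 had their highest summit at the start in at least 1 library and past the end in another. In these 33 genes the highest summit was past the end in 25 and 19 genes in the untreated and treated *Parp14*+/+ libraries, against 10 and 12 in the *Parp14*-/- libraries. These genes were chosen for a change of place. Over all 254 genes the counts past the end were 136 and 118 in the *Parp14*+/+ libraries and 115 and 117 in the *Parp14*-/- libraries, so that untreated *Parp14*+/+ alone stood apart. Between the untreated libraries, 17 genes went from the end in *Parp14*+/+ to the start in *Parp14*-/- and 3 went the other way, of 185 genes with a summit at either place in both libraries. Between the treated libraries the counts were 11 and 4 of 184. Over all listed genes the same counts were 246 and 90 of 2213, and 222 and 106 of 2143, so this direction is shared with genes of lower height. With PJ34 in *Parp14*+/+, 12 genes went from the end to the start and 3 the other way, of 181, against 179 and 143 of 2412 over all listed genes. In *Parp14*-/- the counts with PJ34 were 7 and 9 of 191, against 154 and 137 of 2122 over all listed genes.

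The following genes that changed place were named after their values had been seen. *Rpl3*, a ribosomal protein gene, had 69 and 55 past its end in the *Parp14*+/+ libraries and 46 and 51 at its start in the *Parp14*-/- libraries. *Gadd45b*, a stress response gene, had 47 past its end in *Parp14*+/+ and 48, 71 and 61 at its start in the other 3. In *Hspa8*, a constitutive chaperone, the 32 past the end in *Parp14*+/+ stood against 46, 31 and 39 at the start. *Rplp0*, *Rpl8*, *Pabpc1*, *Srsf7*, *Gas5* and *H2-K1* changed place between the same libraries as *Gadd45b*.

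Heights of the untreated genotypes could be compared in 219 tall regions with a summit in both libraries. The ratio of *Parp14*+/+ to *Parp14*-/- was above 1.4, a threshold of the study, in 19 regions (8.68%) and below 0.7 in 40 (18.3%). The study applied its thresholds to average peak values of genes, and accepted ratios nearer 1 for highly transcribed genes. These counts use summit heights and only the outer thresholds, so they do not follow its full rule. Over all merged regions with both summits these shares were 13.7% and 14.6%, and most of those heights are low and vary more by counting alone. The interval of the ratio lay above 1 in 9 tall regions (4.11%) and below 1 in 35 (16%). Over all merged regions these shares were 0.46% and 1.81%, or 2.27% together, and at heights of 20 to 39 they were 0.937% and 4.02%. Counting intervals narrow as heights increase, so these shares cannot be compared directly between regions of unlike height. The median ratio of tall regions was 0.932. By place it was 0.868 at gene starts (28 regions), 1.11 at a start and past an end (39 regions), 0.972 past ends (112 regions) and 0.792 inside genes (17 regions). Over all merged regions the medians were 0.9 at starts, 1.09 at both and 1.05 past ends.

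The 6 lowest ratios were at *Cd69*, *Irgm1*, *Gm12185*, *Nabp1*, *Gadd45g* and *Egr1*. *Cd69*, an early activation antigen of lymphocytes, had 29, 41, 88 and 86 at 478 bp past its end. The ratio was 0.33 (0.209 to 0.506) without and 0.477 (0.32 to 0.699) with PJ34, and the *Parp14*-/- library was the higher one in both pairs. *Irgm1*, an interferon-induced GTPase, had 31, 49, 91 and 75 at 638 bp past its end, with ratios of 0.341 (0.219 to 0.517) and 0.653 (0.446 to 0.949). *Gm12185* on the same chromosome had 15, 22, 41 and 40 at 1004 bp upstream of its start.

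*Nabp1*, which encodes a single-stranded DNA binding protein, had its summit 42 bp into the gene. Heights were 32, 45, 87 and 83, with ratios of 0.368 (0.237 to 0.557) and 0.542 (0.368 to 0.788). Its pattern over the libraries was like that of *Cd69*, although it is a start summit. *Gadd45g* and *Egr1* differed from these. *Gadd45g*, a stress response gene, had 19, 40, 44 and 39, with a genotype ratio of 0.432 (0.238 to 0.755) without PJ34 and 1.03 (0.643 to 1.64) with it. For *Egr1* the ratios were 0.496 (0.354 to 0.687) and 0.879 (0.685 to 1.13). At both, *Parp14*+/+ alone was low.

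The 5 highest ratios were at *Il4*, *Il3*, *Cdkn1a*, *Zfp703* and *Rnf19b*, each past the end of its gene. *Il4*, the defining Th2 cytokine, had 84 and 45 in *Parp14*+/+ without and with PJ34, and 41 and 26 in *Parp14*-/- likewise at 689 bp past its end. The genotype ratio was 2.05 (1.39 to 3.05) without and 1.73 (1.04 to 2.92) with PJ34. The *Irf1* summit, at chr11:53592593 and so on the same chromosome as that of *Il4* at chr11:53425281, was ordered the other way. Its ratio was 0.597 (0.452 to 0.785) without PJ34 and 0.924, nearer 1, with it. *Il3*, a haematopoietic cytokine, had 48, 36, 24 and 32, with a ratio of 2 (1.2 to 3.41) in the untreated pair and 1.12 (0.679 to 1.87) in the treated pair.

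*Cdkn1a*, a cyclin-dependent kinase inhibitor, had 54, 33, 30 and 37, and *Zfp703* 40, 17, 23 and 27. In both, the *Parp14*+/+ library alone was high. *Rnf19b*, a ubiquitin ligase gene, had 53 in *Parp14*+/+ and 31 in *Parp14*-/- with no summit within 1 kb in the treated libraries.

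**Figure D4:**
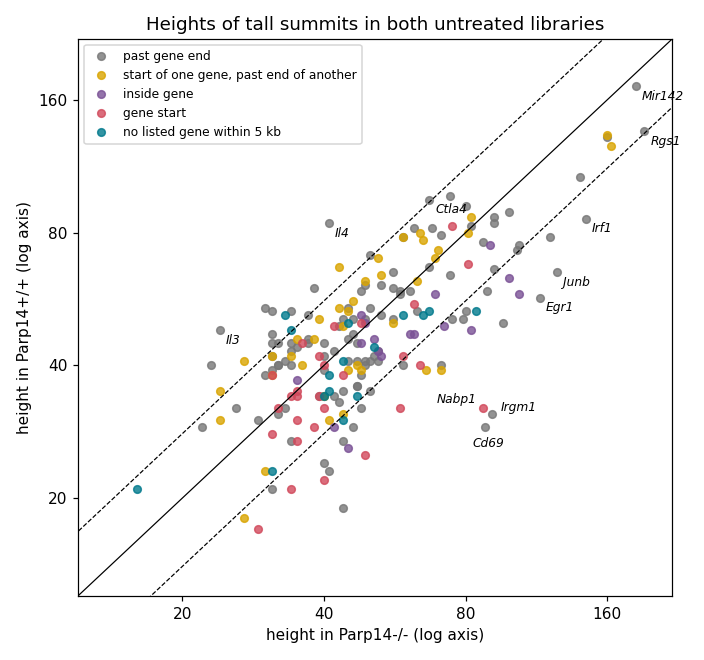
Height in *Parp14*+/+ (vertical, log axis) against *Parp14*-/- (horizontal, log axis) of tall regions with a summit in both, coloured by place. The solid line marks equal heights and the dashed lines ratios of 1.4 and 0.7, and *Il4* (84 and 41) lies above while *Cd69* (29 and 88), *Irgm1* and *Nabp1* lie below.

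With PJ34, the genotype ratio was above 1.4 in 20 of 223 tall regions (8.97%, against 23.2% of all merged regions) and below 0.7 in 36 (16.1%, against 7.1%, with 30.3% past either). The lower heights of *Parp14*-/- + PJ34 over the genome move these shares. Scaled for that library, 13 regions were above and 51 below. The factor of 0.9 comes from all merged regions. Over tall regions the median ratio was 1 unscaled and 0.9 scaled, against 1.125 and 1.012 over all merged regions. The interval lay above 1 in 10 tall regions (4.48%) and below 1 in 22 (9.87%). Over all merged regions these shares were 1.06% and 0.88%, or 1.94% together, and at heights of 20 to 39 they were 3.37% and 1.12%. The limit on comparing unlike heights holds here too. Of the 40 regions below 0.7 without PJ34, 35 had both summits with PJ34, and 28 of these were below 1 there, 9 of them below 0.7. Of the 19 above 1.4, 16 had both, and 11 were above 1, 4 of them above 1.4. Across the 185 regions with 4 summits the log2 ratios of the 2 pairs had a Pearson r of 0.458 and a Spearman rho of 0.46, against 0.219 and 0.207 across 1651 merged regions of any height. The pairs share no library, and the points share depth and gene loci, so this is a description.

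**Figure D5:**
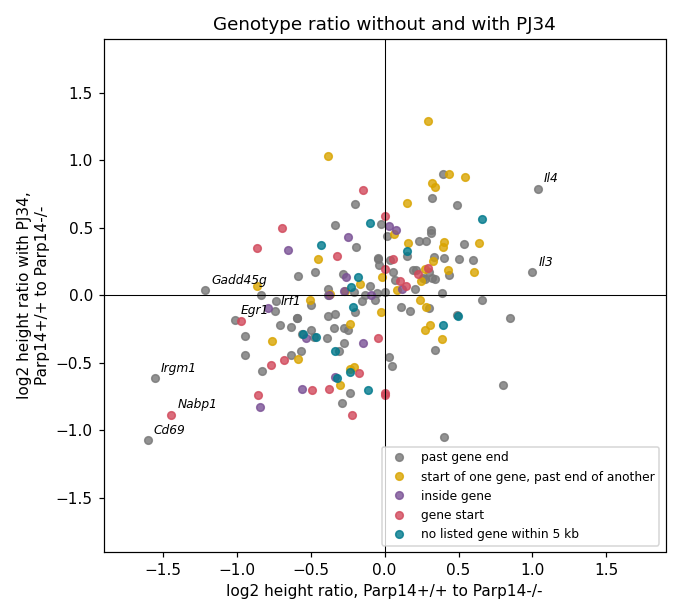
Log2 ratio of *Parp14*+/+ to *Parp14*-/- with PJ34 (vertical axis) against that without PJ34 (horizontal axis) for the 185 tall regions with a summit in each library, coloured by place. *Cd69*, *Nabp1* and *Irgm1* are low on both axes, *Il4* is high on both, and *Gadd45g* and *Egr1* are low only on the horizontal axis.

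Both *Parp14*-/- libraries were above both *Parp14*+/+ libraries in 52 of these 185 regions (28.1%). The share was 14.4% of 1651 merged regions with 4 summits and 19.3% of the 519 among them with a height of 20 to 39. The reverse order was found in 37 (20%), against 21.2% and 22.9%. Heights were not scaled for these orders, although *Parp14*-/- + PJ34 had a median ratio of 0.9 to *Parp14*+/+ over all merged regions. At gene starts the counts were 8 and 2 of 23, past ends 23 and 18 of 90, and at a start and past an end 6 and 12 of 37. Over all merged regions at the same places the shares were 24.7% and 10.95% at starts, 9.64% and 27.7% past ends, and 9.64% and 27.4% at both, so tall regions past ends had the *Parp14*-/- libraries on top in a larger share (25.6%). Regions with the *Parp14*-/- libraries on top that had not been named by ratio, and are named here after their values were seen, include *Gbp4*, an interferon-induced GTPase, with 50, 70, 96 and 95, and *Myc* with 40, 42, 71 and 62. *Efl1*, a gene of ribosome assembly, had 58, 58, 104 and 103 inside the gene under intervals of 1350 to 3450 bp, with nearly the same height within each genotype. *Gzmb*, encoding granzyme B, had 53, 58, 80 and 65. Among regions with the *Parp14*+/+ libraries on top were *Ctla4*, an inhibitory receptor, with 95, 70, 67 and 58, and, named after its values were seen, *Csf2*, encoding GM-CSF, with 47, 42, 31 and 35.

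PJ34 was compared within each genotype. The ratio of *Parp14*+/+ to *Parp14*+/+ + PJ34 was above 1.4 in 25 of 213 tall regions (11.7%, against 9.52% of all merged regions) and below 0.7 in 16 (7.51%, against 12.7%). The ratio of *Parp14*-/- to *Parp14*-/- + PJ34 was above 1.4 in 31 of 234 (13.2%, against 20.5%) and below 0.7 in 11 (4.7%, against 5.87%). Scaled for *Parp14*-/- + PJ34, the second pair had 13 above and 23 below. Its median ratio over tall regions was 1.061 unscaled and 0.9545 scaled, against 1.111 and 1 over all merged regions. The interval of the first ratio lay above 1 in 15 tall regions (7.04%) and below 1 in 9 (4.23%). Over all merged regions these shares were 0.547% and 0.497% (1.04% together), and at heights of 20 to 39 they were 0.952% and 1.36%. The interval of the second ratio lay above 1 in 16 (6.84%) and below 1 in 6 (2.56%). Over all merged regions these shares were 1.28% and 0.363% (1.65% together), and at heights of 20 to 39 they were 3.43% and 0.888%. Because the intervals narrow with height, the shares cannot be compared directly between unlike heights. By place, the median of the first ratio was 0.857 at gene starts and 1.04 past ends, and of the second 0.897 and 1.09. Over all merged regions these medians were 0.941 and 1 for the first ratio, and 1 and 1.125 for the second. The median was thus lower at starts than past ends over all merged regions too. Scaled, the second pair had medians of 0.808 and 0.985 in tall regions, both below 1, against 0.9 and 1.012 over all merged regions.

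The 3 highest ratios without to with PJ34 in *Parp14*+/+ were at *Nr4a1*, *Zfp703* and *Rpl13*. *Nr4a1*, an orphan nuclear receptor induced by T cell receptor signals, had 45, 14, 34 and 29 at 826 bp past its end, a ratio of 3.21 (1.73 to 6.34). In *Parp14*-/- the ratio was 1.17 (0.693 to 2). *Rpl13* had 53 without and 28 with PJ34. The 3 lowest were at *Egr1* with 0.46 (0.33 to 0.634), *Gadd45g* with 0.475 (0.26 to 0.84), and a region of chromosome 14 at 104736193 with no listed gene within 5 kb, where heights were 23, 53, 31 and 41 under intervals of 300 to 750 bp.

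Each untreated library was above both treated libraries in 30 of the 185 regions (16.2%, against 15.1% of merged regions), and both treated libraries were above both untreated in 19 (10.3%, against 8.12%). Named after their values were seen, the summit past *U2af2* and at the start of *Epn1* had 62 and 63 without PJ34 in *Parp14*+/+ and *Parp14*-/-, and 34 and 37 with it. *Actg1*, encoding the other cytoplasmic actin, had 59 and 61 without PJ34 and 80 and 79 with it.

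The following counts describe gene lists chosen with earlier results of these data known. Of all 10949 listed gene names, 307 (2.8%) had a tall region, which is the share to read them against. Of 82 listed cytosolic ribosomal protein genes, 20 had a tall region, in 24 regions of which 10 were past an end, 10 at a start and past an end, and 4 at a start. The ratio of *Parp14*+/+ to *Parp14*-/- was above 1 in 11 of 13 of these regions, against 91 of 219 tall regions and 1591 of 3698 merged regions. Its median was 1.22 against 0.932 over all tall regions and 1 over all merged regions. Part of this gap can lie in place, as the median of tall regions was 1.11 at a start and past an end, 0.972 past ends and 0.868 at starts, and this was not tested. With PJ34 the genotype ratio of the ribosomal regions was above 1 in 8 of 17, with a median of 0.976. It was above 1 in 108 of 223 tall regions and 2017 of 3408 merged regions. The ratio of *Parp14*+/+ to *Parp14*+/+ + PJ34 was above 1 in 14 of 16, against 107 of 213 tall regions and 1576 of 4025 merged regions. Examples are the summit past *Rpl35a* and at the start of *Lmln*, with 67, 59, 43 and 45, and that past *Rpl4* and at the start of *Snapc5*, with 77, 70, 65 and 65. Of 26 translation factor genes 11 had a tall region, and 9 of the 14 regions were past an end, among them *Eef2*, an elongation factor, with 97, 81, 74 and 80. *Eef1a1*, which brings transfer RNA to the ribosome, had 82 in *Parp14*+/+ at 1779 bp past its end, 62 in *Parp14*-/- at 1491 bp past it and 84 in *Parp14*+/+ + PJ34 at 4947 bp past it.

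Of 34 immediate early genes 15 had a tall region. Of the 18 regions 10 were past an end and 6 at a start, and the genotype ratio was above 1 in 5 and below 1 in 6 of 11 regions without PJ34, and above 1 in 3 and below in 10 of 13 with it. Over all tall regions these counts were 91 and 122 of 219 without PJ34, and 108 and 107 of 223 with it. Over all merged regions they were 1591 and 1651 of 3698, and 2017 and 1026 of 3408. *Nr4a3*, a relative of *Nr4a1*, had 59, 57, 89 and 64 past its end, and *Mcl1*, a survival factor, 58, 72 and 75 in the libraries other than *Parp14*+/+. Among feedback regulators of cytokine signalling, 4 of 11 listed genes had a tall region, and the ratio was below 1 in all 3 regions that could be compared in each pair, against 122 of 219 tall regions without and 107 of 223 with PJ34. *Pim1*, a kinase induced by STAT factors, had 66, 75, 92 and 93. *Socs1*, an inhibitor of JAK kinases, had 53, 52, 63 and 62 at 764 bp past its end. *Socs3*, its relative, had 27, 28 and 41 past its end in 3 libraries, whereas in *Parp14*-/- its highest summit was 36 at 11 bp into the gene. *Cish* had 87, 92 and 89 in the 3 libraries other than *Parp14*+/+ + PJ34, where the summit of 62 was inside the gene.

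Of 16 listed Th2 genes 4 had a tall region, all past the end. Besides *Il4* and *Il4ra* these were *Gata3*, the master regulator of Th2 cells, with 60, 58 and 43 in the 3 libraries other than *Parp14*-/-, and *Il10*, with 66 and 50 in *Parp14*-/- without and with PJ34. In *Parp14*-/- the interval over the *Gata3* summit had a height of 45. In the *Parp14*+/+ libraries the interval over *Il10* reached 75 and 61 at another place, so no ratio is given. Of 28 listed genes of the T cell receptor and costimulation 7 had a tall region. *Ctla4* and *Cd69*, given above, were the tallest of these along with *Ptpn22*, a phosphatase, with 80, 56, 81 and 51 at a summit that is also at the *Rsbn1* start.

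Of 13 genes of antigen presentation by MHC class I 4 had a tall region, and the ratio without PJ34 was below 1 in all 3 that could be compared, with a median of 0.561, against 122 of 219 tall regions below 1. With PJ34 it was above 1 in 1 and below 1 in 2 of 4, with a median of 0.858, against 108 and 107 of 223 tall regions. *B2m*, the light chain of MHC class I, had 40, 48, 64 and 67 at 18 bp into the gene. The summit past *Tapbp*, which loads peptides, and at the start of *Rgl2* had 39, 45, 71 and 43, and that past *Tap1*, the peptide transporter, 23, 35, 41 and 35. *H2-K1* had 21, 19 and 49 at its start in the 3 libraries other than *Parp14*+/+.

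Other lists had fewer regions. Of 16 STAT and IRF factors 3 had a tall region, *Irf1*, *Irf4* and *Stat5a*, the last with 59, 46, 48 and 49. Of 14 genes of NF-kB feedback 4 had one, among them *Nfkbiz* with 51, 64, 79 and 87 and *Nfkb1* with 92, 80 and 66 past its end in the libraries other than *Parp14*+/+ + PJ34. Of 21 actin cytoskeleton genes 4 had one, among them *Tmsb4x*, which binds actin monomers, with 45, 51, 32 and 32, and of 21 chaperones 4, of which *Hspa5*, a chaperone of the endoplasmic reticulum, had 34, 45, 35 and 56 at 18 bp into the gene. Of 32 splicing factor genes 9 had a tall region, among them *Hnrnpa2b1* with 76, 77, 87 and 60 past its end. Tall regions were found in 4 of 22 cytokine receptor genes, 2 of 14 glycolysis genes, 3 of 19 cell cycle genes and 4 of 10 snoRNA host and long noncoding genes. Among 33 listed histone genes 2 had one. *H1f2*, a linker histone, had 49, 50, 72 and 81, and *H3f3b*, a variant histone H3, had 53 past its end in *Parp14*+/+, 67 and 76 at its start in *Parp14*+/+ + PJ34 and *Parp14*-/-, and 76 past its end in *Parp14*-/- + PJ34. Of 5 BTG genes, *Btg1* alone had a tall region, with 68, 57 and 81 at its start in the libraries other than *Parp14*-/- + PJ34 and 82 at 3884 bp past its end in that library.

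At *Mir155*, as at *Mir142*, the libraries were close. The summit was 3888 bp past the hairpin, with 54, 50, 50 and 53, so the 4 heights were nearly equal. The *Mir21* summit, given above, differed from these, with a genotype ratio of 0.645 (0.479 to 0.864) without PJ34. With PJ34 that ratio was 0.852, nearer 1. The *Mir155* and *Mir21* regions and the U11 gene below were named after their values were seen.

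A group of tall regions lay at genes of small nuclear RNAs, most of which Pol II transcribes into short RNAs that are not polyadenylated. Of the 340 tall regions, 11 (3.24%) were within 500 bp of an annotated snRNA gene, against 40 of all 28148 regions (0.142%). With 3 regions at genes of U3, a small nucleolar RNA, this gave 14 regions at genes of U1, U2, U3, U4, U5, U7 and U11, 8 of which had no listed gene within 5 kb. All 14 had a summit in each library, between 40 bp before and 286 bp after the start of the RNA, and the median interval over them was 2700 bp long. Median heights over them were 48.5 and 50 in the untreated and treated *Parp14*+/+ libraries, and 51 and 54.5 in those of *Parp14*-/-.

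The U11 gene (*Rnu11*), of the minor spliceosome, was the tallest, with 83, 88, 75 and 84. A pair of U1 genes on chromosome 11, at summits 87236545 and 87240449, had 53, 55, 67 and 73, and 52, 51, 65 and 78. The *Parp14*-/- library was above *Parp14*+/+ in 8 of the 14, and *Parp14*-/- + PJ34 above *Parp14*+/+ + PJ34 in 8 of 14. Over all tall regions these counts were 122 of 219 and 107 of 223, and over all merged regions 1651 of 3698 and 1026 of 3408. Genes of most of these RNAs have near-identical copies, so these heights are uncertain as values of a single locus.

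Of the 32 tall regions without a listed gene within 5 kb, 15 had an annotated gene there, of which 8 were the U RNA genes and the others included *Trac*, the constant part of T cell receptor alpha, with 39, 45 and 32 in the libraries other than *Parp14*+/+. A region with neither on chromosome 17 at 52294945 had 53 in *Parp14*+/+ and 84 in *Parp14*-/-, under intervals of 44700 and 36750 bp. A region on chromosome 3 at 5860705 had 76, 82 and 68 in the 3 libraries other than *Parp14*+/+, where no interval was called. Its intervals were 450 to 750 bp long, much shorter than the median of 14250 to 18750 bp over tall summits. A region on chromosome 12 at 75054097, upstream of the annotated *Gm15283*, had 65, 88 and 77 in the libraries other than *Parp14*-/-. The listed gene *Hif1a* ends before it at 75047878. In *Parp14*-/- a summit of 77 lay 2139 bp past that end, where no other library had one, so the summit stood nearer *Hif1a* in that library.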

How the data were processed

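Pol II ChIP-Seq was analysed in 4 libraries of Th2 cells, 1 per condition. The authors aligned reads to mm9 (ELAND), kept 1 copy of duplicates, cut the libraries down to equal numbers of alignments, extended them to fragments and called intervals with SICER against an Input library, whose values were not used here. The deposited tracks give 1 summit per interval with its height, a signal of overlapping fragments. The deposited gene table gives an average peak height (signal) per gene and library. It also holds 8 columns of per-sample values of other libraries, which were not used.

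Summits of height 40 or more were merged when 1 kb or less apart. In each library the highest summit within 1 kb of a region was taken, and regions without it were left out of ratios. Places were assigned from the table's coordinates and the summit of the tallest library. Genes were named by transcript accession in RefSeq (9848 of 11608 lines), then gene identifier (768) or label (340), and 652 stayed unnamed. Windows and exons came from NCBIM37, the assembly of mm9. With 1 library per condition nothing was tested and no p-values are printed. Intervals are exact binomial (Clopper-Pearson, 95%) and cover counting error only. Reads without duplicates limit a height to at most 300 for fragments of 150 bp on 2 strands. The merging, lookup and ratio steps were checked on simulated tracks. Python 3.11.15 was used with numpy 2.4.6, pandas 2.3.3, scipy 1.17.1 and, for figures, matplotlib 3.10.9. Alternatives were other heights and merging distances, scaled heights, heights corrected for duplicate removal, other gene models and the average peak height.

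The members and lists were chosen with earlier results of these data known. Named regions are the 15 with the highest mean over 4 summits, the 6 highest and 6 lowest ratios of *Parp14*+/+ to *Parp14*-/-, the 3 highest and 3 lowest of *Parp14*+/+ to *Parp14*+/+ + PJ34, up to 4 of each list, genes named in the study's Results, examples at the threshold and the 4 tallest without a listed gene. Some of these items are not reported here.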

Additional observations from a re-analysis of the deposited data

Results flagged for a closer look

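In 3 tall regions the 2 ratios of the same contrast lay past the thresholds in opposite directions. At *Zfp703* the ratio of *Parp14*+/+ to *Parp14*-/- was 1.74 (1.02 to 3.04) without PJ34 and 0.63 (0.322 to 1.2) with it. At the start of *Ints6*, with heights of 21, 41, 34 and 29, these ratios were 0.618 (0.341 to 1.1) and 1.41 (0.858 to 2.36). At the summit of *Gpx1* and *Rhoa*, with 23, 43, 30 and 21, the ratio without to with PJ34 was 0.535 (0.308 to 0.907) in *Parp14*+/+ and 1.43 (0.791 to 2.62) in *Parp14*-/-. The differences between the ratios were not tested, and there is 1 library per condition.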

How the results depend on the processing

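No paired analysis was possible because each condition has 1 library. The number of tall regions was 718 at a height of 30, 185 at a height of 50 and 647 without merging, and those tall in all 4 libraries numbered 139 and 44 at these heights. Counts of ratios past the thresholds moved by over 1.5 times in these cases. Where the interval had to exclude 1, the counts were 9 above for *Parp14*+/+ to *Parp14*-/-, 32 (10 above, 22 below) for the treated pair, 24 (15 and 9) for PJ34 in *Parp14*+/+ and 22 (16 and 6) in *Parp14*-/-. With scaled heights they were 13 above for the treated pair, and 13 above and 23 below for PJ34 in *Parp14*-/-, so that the direction with more regions turned there. Where an interval's height stood in for a missing summit, an alternative chosen after seeing the data, they were 92 (65 below) for *Parp14*+/+ to *Parp14*-/- and 63 (27 below) for PJ34 in *Parp14*+/+. For the last cases the cause was not tested. The count past gene ends stayed between 142 and 172 under the other gene models, the *Parp14*+/+ summit and the reach of 10 kb. For the named regions, none of 249 ratios left its counting interval with scaled heights, and none of 249 with correction for duplicates. The scaling factor was 0.9 for *Parp14*-/- + PJ34 and 1 for the other libraries. Ratios without that library therefore could not change on scaling, and the others changed by this factor alone, so the scaled result is no test of stability. With 1 library per condition, differences between cultures and between conditions cannot be told apart.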
